A study of Mus musculus with 6 samples.

Results

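The 9 genes that receive, transduce and feed back on the Hedgehog signal were measured by RNA-seq in mouse stem-like medulloblastoma cells: Gli1, Gli2, Gli3, Ptch1, Smo, Hhip, Sufu, Boc and Cdon. They were taken by gene symbol, and all 9 of 9 were found among the 24063 symbols of the files. All cells had the genotype Math1-Cre; SmoM2, so control and Miat guide cells alike carried the activated Smo allele SmoM2, for which the Cre driver is Math1, a gene of cerebellar granule neuron progenitors. The control carried the guide sgGal4-4, named for the yeast factor Gal4 and labelled wild type. The cells labelled as Miat knockdown carried either sgMiat-6 or sgMiat-96, whose names refer to Miat, a long noncoding RNA. Each of the 3 groups had 2 libraries. The labels give cerebellum as the tissue. They do not give the age of the animals, the number of clones or animals behind the cells, or whether the 2 libraries of a group came from separate cultures, and the p-values measure only the spread between these samples, which may be technical.

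In the Hedgehog pathway the receptor Ptch1 holds the transmembrane protein Smo inactive until a Hedgehog ligand binds Ptch1 together with the coreceptors Boc, Cdon and Gas1. Active Smo, in the primary cilium, releases the Gli factors from Sufu. Gli2 then acts mainly as an activator, Gli3 is mainly processed to a repressor, and Gli1 is both an activator and a transcriptional target. Ptch1 and Hhip, a membrane protein that binds the ligand, are targets that feed back on the signal. The pathway drives granule neuron progenitors to divide, and activated Smo gives rise to medulloblastoma in mice.

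The counts in the rows kept summed to between 18438909 and 19650274 per library. Miat, the gene named by the guides, had 140 and 139 counts in the control libraries and 0 in the 4 Miat guide libraries, where 3 counts correspond to between 0.149 and 0.173 CPM (counts relative to the library total, scaled by TMM factors). A large part of the transcriptome differed: 66.5% of 13219 tested genes were called for the mean of both Miat guides, with edgeR's quasi-likelihood test at an adjusted p under 0.05 (Benjamini-Hochberg over all tested genes). Of 8 neural stem cell markers, 7 were present (Sox2, Nes, Vim, Olig2, Fabp7, Sox9 and Msi1) and Prom1 was at 0 in 5 of 6 libraries. They summed to between 4496 and 4660 CPM in the control libraries and to between 6600 and 7905 CPM with either guide. Of the 7 that were tested, 3 were called higher and 2 lower for both guides. Vim went from 1471 and 1521 CPM to between 2714 and 3308 CPM. Sox9 went from 91.1 and 88.6 CPM to between 49.7 and 59.3 CPM, and Msi1 from 35.7 and 35.3 to between 21.7 and 31.1. By contrast, the granule neuron progenitor marker Atoh1 (Math1) was at 0 in all 6 libraries. Summed markers of other cells moved with the groups. The 8 astrocyte markers summed to between 2837 and 2928 CPM in the control libraries and to between 660 and 838 CPM with either guide. The control sum was mostly Slc1a3 and Apoe, and Gja1 was at 0. S100b went the other way, from 18.3 and 19.1 CPM to between 47.8 and 67.5 CPM. The 7 neuron markers summed to 746 and 747 CPM in the control and to between 291 and 498 CPM with either guide, nearly all of it Map2 and with Gabra6 at 0, while Tubb3 went from 0.206 and 0.152 CPM to between 5.26 and 9.16 CPM. The 6 oligodendrocyte markers summed to between 965 and 971 CPM and to between 1918 and 3311 CPM, mostly Olig1. The 9 granule neuron progenitor markers summed to between 124 and 131 CPM and to between 211 and 231 CPM. Among them Zic1 went from 53.2 and 48.2 CPM to between 96.9 and 115 CPM. Mfap4 went from 1.03 and 1.57 CPM to between 0.0992 and 0.281 CPM. The part of these shifts in the results below was not tested, and in bulk samples fewer cells of a type and less RNA per cell cannot be told apart.

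Of the 9 genes, all of which passed the filter on low counts, 6 fell, 1 rose and 2 were not called when the mean of both Miat guides was set against the control. Among all tested genes 33.4% fell and 33.1% rose. With sgMiat-6 alone 5 fell and 1 rose, against a background of 26.1% lower and 26.9% higher, 53.0% in all. With sgMiat-96 alone 6 fell and 1 rose, against 34.2% lower and 34.0% higher, 68.2% in all. Both guides were compared with the same 2 control libraries, so these counts are not independent of each other. The median log2 fold change of the 9 genes was -0.39 for both guides, -0.40 with sgMiat-6 and -0.60 with sgMiat-96. All tested genes had medians of 0.00, 0.02 and 0.00. Tested genes with transcripts between 3662 and 9078 bp, the length range of the 9 genes, had medians of -0.32, -0.17 and -0.48. Much of the shift in the median was thus shared by genes of like length for both guides and for sgMiat-96. The split of calls also moved once a trend over transcript length was removed. For both guides Gli1, Gli2, Ptch1 and Hhip stayed lower and Cdon higher. Gli3 was then called higher (0.30, adjusted p = 0.0158 by edgeR) and Boc was not called (-0.15, adjusted p = 0.128). Gli3 was also called higher for each guide alone, and Smo was called higher for sgMiat-96 (0.23, adjusted p = 0.0246 by edgeR). For 5 of the 9 genes the change for both guides was between 4.62-fold and 32.6-fold. The libraries of both Miat guides lay apart from the control in 6 of the 9 genes, 5 lower and 1 higher, where 67.0% of tested genes did so, 33.0% lower and 34.0% higher. For sgMiat-6 alone 7 of 9 lay apart (79.2% of tested genes, 39.0% lower and 40.3% higher), and for sgMiat-96 alone 7 of 9 (86.5%, 43.3% lower and 43.2% higher).

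**Figure D1:**
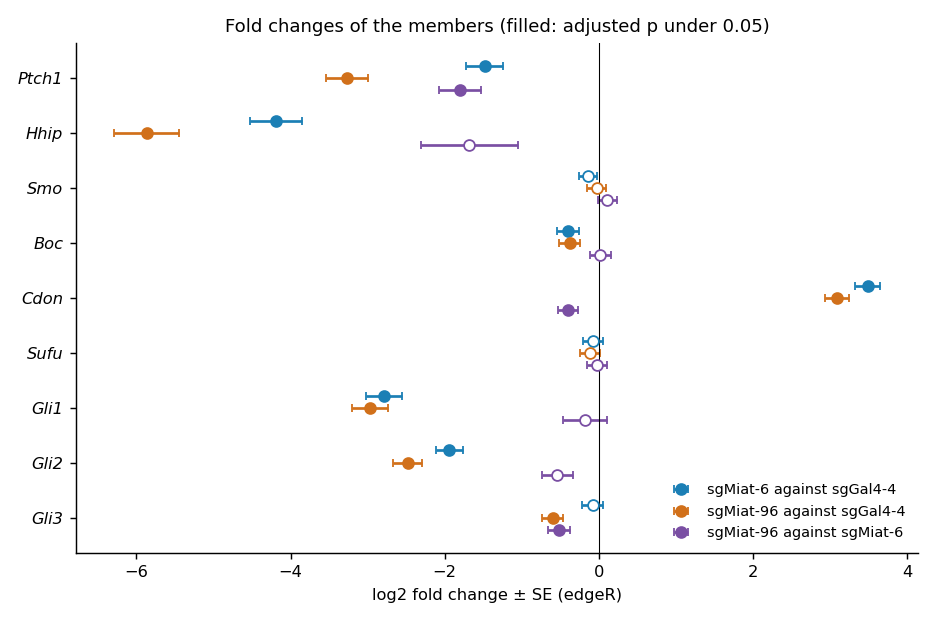
Log2 fold change (x axis, log2 units) of each of the 9 genes (rows) for each Miat guide against the control and for sgMiat-96 against sgMiat-6; points are fitted values, bars are ± SE, and filled points passed an adjusted p of 0.05. Hhip, Gli1, Ptch1 and Gli2 lie left of 0 and Cdon right of 0 for either guide against the control, while Smo and Sufu lie close to 0.

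The stretches just upstream of 4 genes that moved by over 4-fold are printed next, 3 that fell and Cdon that rose. Ptch1 and Hhip are classical Gli targets. The sequences are from RefSeq on GRCm38.p6, whose promoter table holds 7 of the 9 genes and has no entry for Gli1 and Boc. Each run is the 250 bases before the table's start site on the strand of the gene, with CG pairs in capitals.
Ptch1, chr13:63565736-63565985, minus strand: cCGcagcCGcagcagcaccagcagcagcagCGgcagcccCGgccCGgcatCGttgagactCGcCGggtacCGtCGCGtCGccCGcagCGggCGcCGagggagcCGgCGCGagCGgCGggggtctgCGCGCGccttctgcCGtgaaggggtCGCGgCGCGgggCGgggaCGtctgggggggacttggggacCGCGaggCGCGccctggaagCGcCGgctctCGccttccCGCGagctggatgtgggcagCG
Hhip, chr8:80058009-80058258, minus strand: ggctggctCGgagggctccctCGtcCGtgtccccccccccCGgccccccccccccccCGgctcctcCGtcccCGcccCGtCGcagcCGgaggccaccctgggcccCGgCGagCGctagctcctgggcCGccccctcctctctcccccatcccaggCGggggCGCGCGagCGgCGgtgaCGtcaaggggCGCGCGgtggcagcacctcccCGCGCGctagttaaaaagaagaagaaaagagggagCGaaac
Gli2, chr1:119053620-119053869, minus strand: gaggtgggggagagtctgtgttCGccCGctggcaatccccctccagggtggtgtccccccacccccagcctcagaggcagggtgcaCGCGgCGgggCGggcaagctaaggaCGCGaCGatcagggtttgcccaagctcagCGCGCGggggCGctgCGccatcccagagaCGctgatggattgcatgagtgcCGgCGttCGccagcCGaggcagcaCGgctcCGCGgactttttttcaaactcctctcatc
Cdon, chr9:35451826-35452075, plus strand: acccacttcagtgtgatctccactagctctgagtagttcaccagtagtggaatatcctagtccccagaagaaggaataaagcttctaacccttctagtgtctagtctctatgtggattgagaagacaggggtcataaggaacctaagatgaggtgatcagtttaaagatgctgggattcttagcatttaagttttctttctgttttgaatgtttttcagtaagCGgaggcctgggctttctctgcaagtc
The windows of Ptch1, Hhip and Gli2 hold 41, 28 and 22 CG pairs, and that of Cdon holds 1, where the median of 32851 windows of the same length is 6. The Cdon and Ptch1 start sites in the table lie inside the genes as GENCODE draws them, so other start sites of these genes are not shown. The Gli-binding motif GACCACCCA, searched on both strands (TGGGTGGTC on the other), had 0 exact matches in the windows of the 7 genes and 0 with 1 mismatch allowed. Over all 32851 windows 0.225% hold an exact match and 5.62% hold a match with exactly 1 mismatch. These letters are not in the windows searched, which says nothing about binding elsewhere.

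Hhip, the membrane protein that binds and sequesters Hedgehog ligands, had the largest fold change of the 9 genes. Its transcript row (NM_020259, 9078 bp; chr8:79965851-80058006, minus strand, GRCm38) held 270 and 200 counts in the control libraries, 14 and 12 with sgMiat-6, and 6 and 1 with sgMiat-96. In CPM the values were 13.9 and 10.1 in the control, 0.694 and 0.612 with sgMiat-6, and 0.337 and 0.0577 with sgMiat-96. The 4 Miat guide libraries all lay below both control libraries, and the lower sgMiat-96 library lay under the level of 3 counts. Hhip fell 32.6-fold for both guides (log2 fold change -5.03 ± 0.29 (SE), adjusted p = 1.28e-08 by edgeR). It fell 18.2-fold with sgMiat-6 (-4.19 ± 0.34, adjusted p = 4.46e-07) and 58.4-fold with sgMiat-96 (-5.87 ± 0.42, adjusted p = 1.1e-07). The size of the sgMiat-96 change rests on 7 counts: it was -7.55 without sgMiat-96 replicate 1 and -5.13 without sgMiat-96 replicate 2. The value for both guides was -5.86 without sgMiat-96 replicate 1. After removal of a trend over transcript length (in a loess fit per library) the values were -4.35 for both guides and -4.94 for sgMiat-96.

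Ptch1, the Hedgehog receptor and a feedback target, fell with both guides, and further with sgMiat-96. Its row (NM_008957, 4305 bp; chr13:63508328-63573598, minus strand) held 1597 and 1450 counts in the control libraries, 748 and 369 with sgMiat-6, and 115 and 167 with sgMiat-96. In CPM it had 82.3 and 73.5, 37.1 and 18.8, and 6.46 and 9.64. The 3 groups did not overlap, although the 2 sgMiat-6 libraries lay well apart (28.0 ± 12.9 CPM, SD, n = 2). Ptch1 fell 5.19-fold for both guides (log2 fold change -2.38 ± 0.20, adjusted p = 4.74e-07 by edgeR), 2.78-fold with sgMiat-6 (-1.48 ± 0.24, adjusted p = 0.000218) and 9.67-fold with sgMiat-96 (-3.27 ± 0.27, adjusted p = 3.72e-07). Relative to sgMiat-6 it was 3.48-fold lower with sgMiat-96. The change with sgMiat-6 was -2.04 without sgMiat-6 replicate 1 and -1.08 without sgMiat-6 replicate 2.

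**Figure D2:**
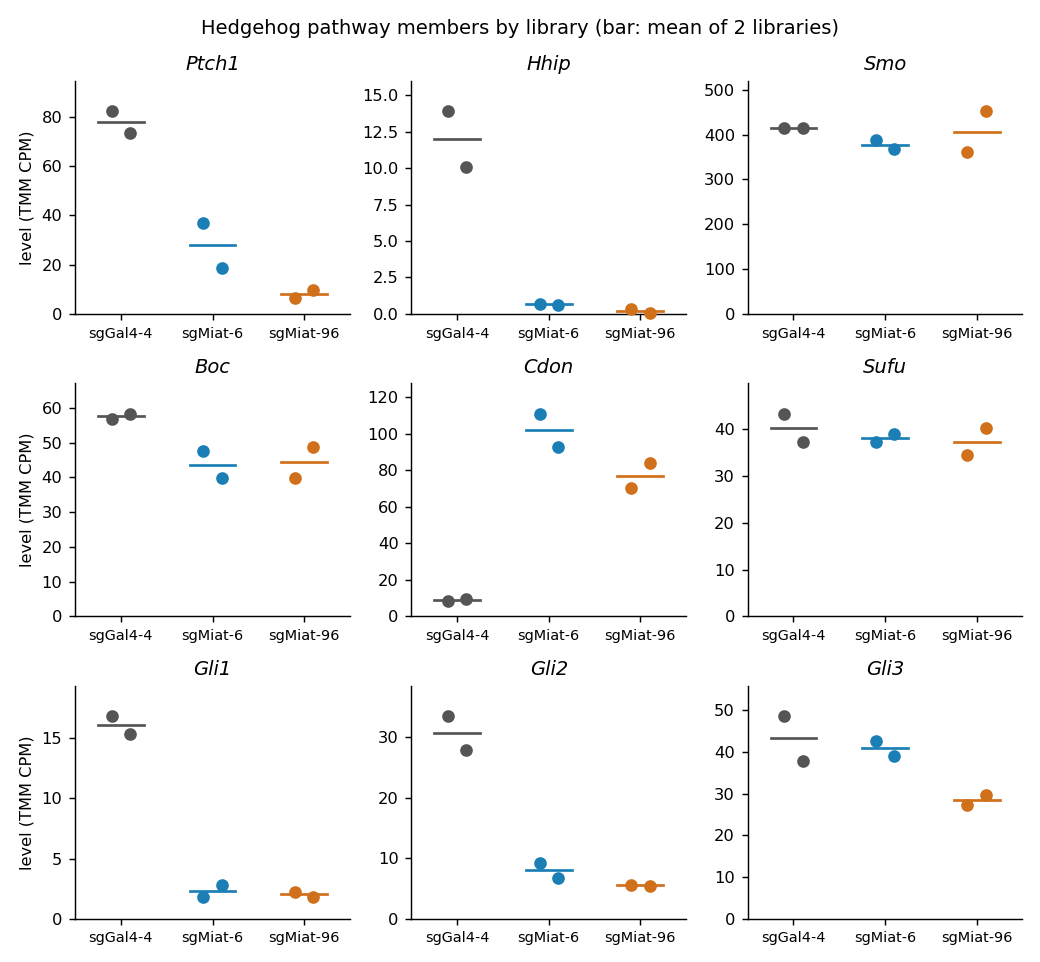
TMM-scaled CPM (y axis, linear scale from 0, set for each gene) of each of the 9 genes in the 6 libraries, by guide; each point is 1 library and each line the mean of 2. The Miat guide libraries of Gli1, Gli2, Ptch1, Hhip and Boc sit below both control libraries, and those of Cdon sit above them.

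The coreceptors Boc and Cdon went opposite ways. Cdon, an immunoglobulin and fibronectin domain protein that binds Hedgehog ligands alongside Boc, was the only one of the 9 genes that rose. Its row (NM_021339, 7214 bp; chr9:35421128-35507652, plus strand) held 162 and 193 counts in the control libraries, 2241 and 1822 with sgMiat-6, and 1249 and 1458 with sgMiat-96. In CPM it had 8.35 and 9.78, 111 and 93.0, and 70.2 and 84.2. The control libraries lay far below the others, and those of the 2 Miat guides did not overlap. Cdon rose 9.78-fold for both guides (log2 fold change 3.29 ± 0.15, adjusted p = 9.99e-10 by edgeR), 11.3-fold with sgMiat-6 (3.49 ± 0.16, adjusted p = 1.7e-09) and 8.51-fold with sgMiat-96 (3.09 ± 0.15, adjusted p = 4.65e-09). For sgMiat-96 the value was 3.84 with the length trend removed.

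Boc moved much less. Its row (NM_172506, 4428 bp; chr16:44485049-44558897, minus strand) had 56.8 and 58.3 CPM in the control libraries, 47.7 and 39.7 with sgMiat-6, and 39.8 and 48.9 with sgMiat-96. All Miat guide libraries lay below the control libraries, and the 2 Miat guides overlapped. Boc fell slightly for both guides (log2 fold change -0.39 ± 0.12, adjusted p = 0.00983 by edgeR), with sgMiat-6 (-0.40 ± 0.14, adjusted p = 0.0255) and with sgMiat-96 (-0.38 ± 0.14, adjusted p = 0.0253). Genes of like transcript length shifted as well. In the 4223 tested genes with transcripts between 3662 and 9078 bp, the range of the 9 genes, the median log2 fold change was -0.32 for both guides, -0.17 with sgMiat-6 and -0.48 with sgMiat-96, and in the other tested genes it was 0.17, 0.11 and 0.24. Boc was not called, once the length trend was removed, for both guides (-0.15, adjusted p = 0.128 by edgeR) or for sgMiat-96 (-0.03, adjusted p = 0.77). The call for both guides was lost without sgGal4-4 replicate 2 (adjusted p = 0.0698), those for sgMiat-6 without either control library or sgMiat-6 replicate 2 (adjusted p up to 0.13), and those for sgMiat-96 without either control library or sgMiat-96 replicate 1 (adjusted p up to 0.209). Per length (RPKM, the CPM per kilobase of transcript), the ratio of Cdon to Boc was 0.0902 and 0.103 in the control libraries, 1.43 and 1.44 with sgMiat-6, and 1.08 and 1.06 with sgMiat-96.

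Smo was the most abundant of the 9 genes and was not called. Its row (NM_176996, 3977 bp; chr6:29735503-29761365, plus strand) had 415 and 415 CPM in the control libraries, 389 and 367 with sgMiat-6, and 362 and 452 with sgMiat-96. The libraries of sgMiat-96 lay on both sides of the control, and those of sgMiat-6 lay below it. The log2 fold change was -0.08 ± 0.10 for both guides (adjusted p = 0.479 by edgeR), -0.14 ± 0.12 for sgMiat-6 (adjusted p = 0.339) and -0.03 ± 0.12 for sgMiat-96 (adjusted p = 0.83). For sgMiat-96 the value with the length trend removed was 0.23 (adjusted p = 0.0246 by edgeR). Transcripts of the activated SmoM2 allele and of endogenous Smo cannot be told apart in these counts. The RPKM ratio of Ptch1 to Smo was 0.183 and 0.163 in the control libraries, 0.088 and 0.0474 with sgMiat-6, and 0.0165 and 0.0197 with sgMiat-96.

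Sufu, the protein that tethers Gli factors in the cytoplasm, also was not called. Sufu has 2 transcript rows, and only the row with the higher total count was used (NM_001025391, 4522 bp; chr19:46396896-46488804, plus strand). This row had 43.3 and 37.3 CPM in the control libraries, 37.3 and 39.0 with sgMiat-6, and 34.5 and 40.2 with sgMiat-96. The groups overlapped. The log2 fold change was -0.10 ± 0.11 for both guides (adjusted p = 0.467 by edgeR), -0.08 ± 0.13 for sgMiat-6 (adjusted p = 0.627) and -0.11 ± 0.13 for sgMiat-96 (adjusted p = 0.461). A missed threshold does not show that Smo or Sufu stayed constant.

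The 3 Gli factors separated, with Gli1 and Gli2 lower and Gli3 little changed. Gli1, the activator that is itself a target, had a row (NM_010296, 3662 bp; chr10:127329882-127341974, minus strand) with 326 and 302 counts in the control libraries, 37 and 55 with sgMiat-6, and 40 and 32 with sgMiat-96. In CPM it had 16.8 and 15.3, 1.83 and 2.81, and 2.25 and 1.85. The control libraries lay above all others, and those of the 2 Miat guides overlapped. Gli1 fell 7.35-fold for both guides (log2 fold change -2.88 ± 0.19, adjusted p = 3.27e-08 by edgeR), 6.91-fold with sgMiat-6 (-2.79 ± 0.23, adjusted p = 5.45e-07) and 7.81-fold with sgMiat-96 (-2.97 ± 0.24, adjusted p = 2.77e-07).

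Gli2, the main activator, had a row (NM_001081125, 6708 bp; chr1:118834132-119053619, minus strand) with 33.4 and 27.8 CPM in the control libraries, 9.22 and 6.74 with sgMiat-6, and 5.62 and 5.37 with sgMiat-96. The 3 groups did not overlap. Gli2 fell 4.62-fold for both guides (log2 fold change -2.21 ± 0.15, adjusted p = 4.89e-08 by edgeR), 3.83-fold with sgMiat-6 (-1.94 ± 0.18, adjusted p = 1.73e-06) and 5.56-fold with sgMiat-96 (-2.48 ± 0.19, adjusted p = 2e-07). For sgMiat-96 the value was -1.78 with the length trend removed.

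Gli3, the main source of Gli repressor, had a row (NM_008130, 8426 bp; chr13:15463235-15730026, plus strand) with 48.5 and 37.9 CPM in the control libraries, 42.7 and 38.9 with sgMiat-6, and 27.3 and 29.7 with sgMiat-96. Libraries of sgMiat-6 overlapped the control, and those of sgMiat-96 lay below it. Gli3 fell by 0.34 ± 0.12 on the log2 scale for both guides (adjusted p = 0.0225 by edgeR) and by 0.60 ± 0.14 with sgMiat-96 (adjusted p = 0.00207). With sgMiat-6 the log2 fold change was -0.08 ± 0.14 (adjusted p = 0.636). The genes in the length range of the 9 had medians of -0.32, -0.17 and -0.48, as given beside Boc. With the length trend removed Gli3 was higher, at 0.30 for both guides (adjusted p = 0.0158 by edgeR), 0.31 for sgMiat-6 (adjusted p = 0.0292) and 0.29 for sgMiat-96 (adjusted p = 0.0387). Without sgGal4-4 replicate 1 the calls for both guides (adjusted p = 0.495) and for sgMiat-96 (adjusted p = 0.068) were lost, and that for both guides also without sgMiat-96 replicate 1 (adjusted p = 0.0691).

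The makeup of the summed Gli transcripts differed between control and Miat guide libraries, on the RPKM scale. The sum of the 3 factors was 15.3 and 12.8 RPKM in the control libraries, 6.94 and 6.39 with sgMiat-6, and 4.69 and 4.83 with sgMiat-96. Gli3 made up 37.6% and 35.1% of that sum in the control, 73.0% and 72.3% with sgMiat-6, and 69.0% and 73.0% with sgMiat-96. Gli1 made up 29.9% and 32.6% in the control libraries, and between 7.22% and 13.1% in the others. Gli2 made up 32.5% and 32.3%, and between 15.7% and 19.8%. The Gli3 share of every Miat guide library lay above that of both control libraries, and the Gli1 and Gli2 shares lay below. These are shares of transcripts, and they do not give the amounts of full-length or processed protein.

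**Figure D3:**
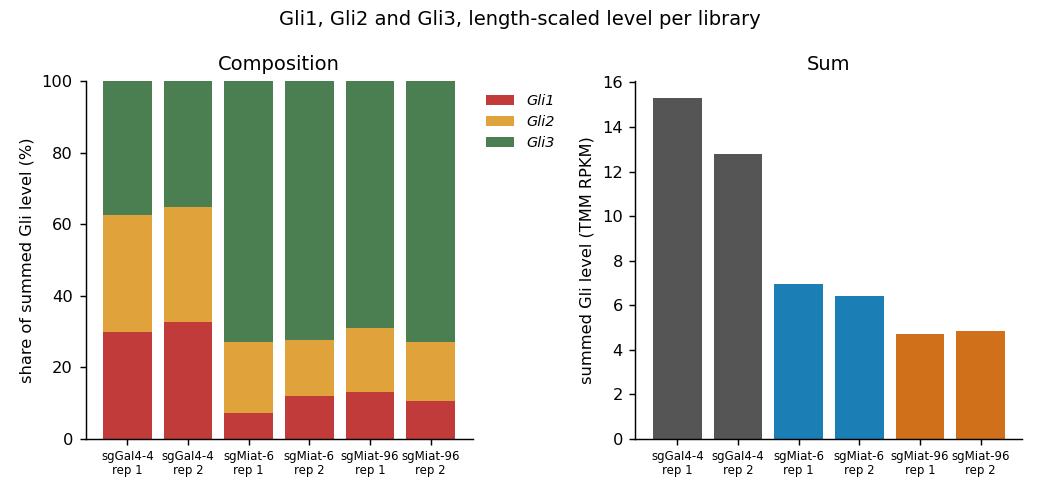
Left, share of Gli1, Gli2 and Gli3 in their summed RPKM (y axis, percent) in each of the 6 libraries; right, that sum (y axis, TMM-scaled RPKM). Gli3 holds between 35.1% and 37.6% in the control libraries and between 69.0% and 73.0% in the Miat guide libraries, where the sum is lower.

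Ordered by level per length, the control cells had Smo first at 104 RPKM, higher than 94.5% of tested genes. Ptch1 followed at 18.1 ± 1.45 RPKM (SD, n = 2), then Boc at 13.0 ± 0.247 and Sufu at 8.92 ± 0.936. Gli3, Gli2 and Gli1 lay between 5.13 and 4.38 RPKM, and neighbours among them overlapped. Hhip at 1.32 ± 0.294 and Cdon at 1.26 ± 0.14 RPKM were lowest and overlapped. With sgMiat-6 Smo stayed first at 95.1 ± 3.94 RPKM and Cdon took the next place at 14.1 ± 1.78. Ptch1 at 6.5 ± 3.0 RPKM then overlapped Sufu above it and Gli3 below it. With sgMiat-96 the order was Smo at 102 ± 16 RPKM, Cdon at 10.7 ± 1.37, Boc just below and overlapping Cdon, Sufu at 8.25, Gli3 at 3.38, Ptch1 at 1.87, Gli2 at 0.819, Gli1 at 0.559 and Hhip at 0.0218. Cdon thus went from the 15.6 percentile of tested genes in the control to the 59.6 and 54.2 percentiles, and Hhip from 16.0 to 2.16 and 0.908.

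Between the 2 Miat guides, 3 of the 9 genes differed: Ptch1, Gli3 and Cdon were lower with sgMiat-96 than with sgMiat-6. Among all tested genes 36.7% differed, 18.8% lower and 17.9% higher. Ptch1 was lower by a log2 difference of -1.80 ± 0.27 (adjusted p = 0.00089 by edgeR). Gli3 differed by -0.52 ± 0.14 (adjusted p = 0.0135) and Cdon by -0.40 ± 0.13 (adjusted p = 0.032), beside a median of -0.29 for genes in the same length range. With the length trend removed the differences were -1.58 for Ptch1, -0.02 for Gli3 and 0.04 for Cdon. The calls for Gli3 and Cdon were lost without sgMiat-6 replicate 1 (adjusted p = 0.0749 and 0.193 by edgeR) and without sgMiat-96 replicate 1 (adjusted p = 0.116 and 0.236). Gli2 (-0.54 ± 0.20, adjusted p = 0.0509) and Hhip (-1.68 ± 0.63, adjusted p = 0.052) missed the threshold, and their libraries did not overlap. With the length trend removed these differences were -0.11 for Gli2 (adjusted p = 0.669 by edgeR) and -1.17 for Hhip (adjusted p = 0.198), and that of Hhip was -3.36 without sgMiat-96 replicate 1 and -0.94 without sgMiat-96 replicate 2. The libraries of 5 of the 9 genes lay apart, all lower, beside 69.8% of tested genes, 34.6% lower and 35.2% higher. Gli1, Smo, Sufu and Boc had differences of -0.18, 0.11, -0.03 and 0.02. Smo was called at 0.27 with the length trend removed (adjusted p = 0.0274 by edgeR). Scaling by total counts alone moved the median of all genes by -0.139 in this comparison and by -0.202 for sgMiat-96 against the control. The calls over all genes then split into 1380 higher and 3721 lower between the guides, in place of 2361 and 2490, and into 3537 and 5549 for sgMiat-96 against the control, in place of 4495 and 4519.

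**Figure D4:**
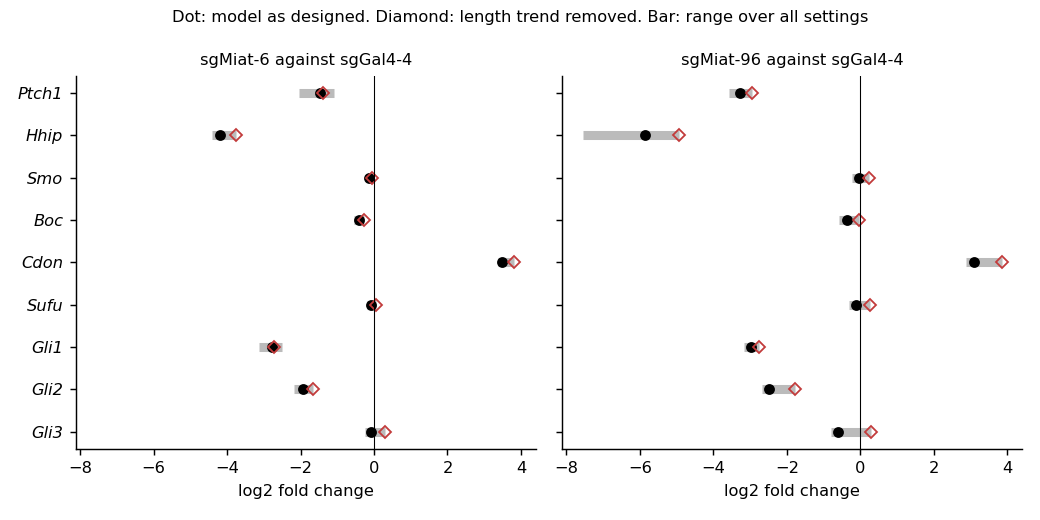
Log2 fold change (x axis, log2 units) of each of the 9 genes for sgMiat-6 (left) and sgMiat-96 (right) against sgGal4-4; dots are the values reported, diamonds those with the length trend removed, and grey bars the range over all settings tried. The bars of Gli1, Gli2, Ptch1 and Hhip stay below 0 and those of Cdon above 0. Those of Gli3 and Sufu cross 0 on both sides, and that of Smo crosses 0 for sgMiat-96.

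The wider pathway was counted over 76 other genes, of which 63 were tested. For both guides 35 fell, 12 rose and 16 were not called, with a median log2 fold change of -0.40 where all tested genes had 0.00 and 66.5% of them were called, 33.4% lower and 33.1% higher. With sgMiat-6 24 fell and 12 rose (26.1% and 26.9% of all tested genes), and with sgMiat-96 37 fell and 15 rose (34.2% and 34.0%). These shares also moved with length, since 27 fell and 17 rose for both guides with the length trend removed, at a median of -0.13. The ligand genes were near 0: Shh had 2 counts in 1 sgMiat-96 library and 0 in the other 5, Ihh had between 1 and 8 counts and Dhh between 0 and 2, and none was tested. Disp1 and Disp2, which release lipid-modified ligands from cells, were the only 2 of 9 ligand-related genes that were tested. Disp1 fell from 40.7 ± 3.01 CPM (SD, n = 2) in the control to 21.1 ± 1.1 (sgMiat-6) and 18.1 ± 1.87 (sgMiat-96), with a log2 fold change of -1.06 ± 0.11 for both guides (adjusted p = 3.6e-06 by edgeR). Disp2 fell by 1.45 ± 0.17 on the log2 scale for both guides (adjusted p = 6.76e-06 by edgeR).

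Of the 5 tested receptors and coreceptors other than the 9 genes, 4 fell and none rose, beside 33.4% lower and 33.1% higher among all tested genes. The glypicans Gpc6 and Gpc1, heparan sulfate proteoglycans of the cell surface, fell by 0.87 ± 0.12 and 0.67 ± 0.09 on the log2 scale (adjusted p = 2.41e-05 and 2.49e-05 by edgeR). Lrp2, an endocytic receptor, fell by 1.24 ± 0.29 for both guides (adjusted p = 0.00226), a call that was lost with the length trend removed (-0.40, adjusted p = 0.241). For sgMiat-6 alone Lrp2 was not called (-0.77 ± 0.33, adjusted p = 0.0663 by edgeR). With sgMiat-96, where its libraries held 11 and 18 counts, it was called (-1.70 ± 0.37, adjusted p = 0.0012). Gas1, the third coreceptor, was not called for both guides (log2 fold change -0.18 ± 0.09, adjusted p = 0.0918 by edgeR) or with sgMiat-96 (0.03 ± 0.10, adjusted p = 0.803). It fell by 0.38 ± 0.10 on the log2 scale with sgMiat-6 (adjusted p = 0.0067 by edgeR) and was higher with sgMiat-96 than with sgMiat-6 (log2 difference 0.41 ± 0.10, adjusted p = 0.00835). Gas1 had 514 and 499 CPM in the control libraries, 412 and 365 with sgMiat-6, and 507 and 528 with sgMiat-96.

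Between Smo and the Gli factors, 13 of 22 tested genes fell and 2 rose, beside 33.4% lower and 33.1% higher among all tested genes. The share called in either direction was near the 66.5% of all tested genes. Evc, a ciliary protein that binds active Smo, fell from 16.8 ± 1.86 CPM in the control to 0.327 ± 0.0289 for sgMiat-6 and 1.45 ± 0.174 for the other guide (log2 fold change for both guides -4.59 ± 0.20, adjusted p = 8.47e-10 by edgeR). Unlike Ptch1 it was higher with sgMiat-96 than with sgMiat-6 (log2 difference 2.13 ± 0.38, adjusted p = 0.00185 by edgeR). Arrb1, a beta-arrestin, fell by 2.00 ± 0.12 on the log2 scale, and Adrbk2, a kinase of the family that phosphorylates Smo, by 1.79 ± 0.12 (adjusted p = 1.49e-08 and 6e-08 by edgeR). Gpr161, a ciliary receptor that holds the pathway down through cyclic AMP, fell for both guides by 1.63 ± 0.23 on the log2 scale (adjusted p = 4.07e-05 by edgeR). It had 16.7 ± 0.779 CPM in the control, 10.9 ± 4.76 with sgMiat-6 and 2.66 ± 0.976 with sgMiat-96, was not called for sgMiat-6 alone (adjusted p = 0.0635) and was lower with sgMiat-96 than with sgMiat-6 (log2 difference -2.04 ± 0.31, adjusted p = 0.000923).

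Of the 12 genes of protein kinase A and casein kinase 1, which phosphorylate the Gli factors, 8 fell and 3 rose, where 33.4% and 33.1% of all tested genes did. The catalytic subunit Prkacb fell by 0.84 ± 0.10 on the log2 scale, Csnk1a1 by 0.72 ± 0.11 and the regulatory subunit Prkar2b by 0.64 ± 0.11 (adjusted p = 1.22e-05, 5.97e-05 and 0.000266 by edgeR). Prkar1b rose from 0.231 ± 0.183 CPM to 1.76 ± 0.25 and 0.967 ± 0.143 (log2 fold change 2.47 ± 0.51, adjusted p = 0.000845). The size of that rise rests on 7 and 2 counts in the control libraries, the lower under the level of 3 counts. Of 7 genes of Gli ubiquitination, 3 fell and none rose, beside the same 33.4% and 33.1%: Cul3 by 0.91 ± 0.09, its adaptor Spop by 0.86 ± 0.10 and Btrc by 0.38 ± 0.10 (adjusted p = 1.39e-06, 8.7e-06 and 0.00539 by edgeR). Btrc was at 0.07 with the length trend removed, and its call was lost without sgGal4-4 replicate 1 (adjusted p = 0.0917).

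Of 15 other reported Gli targets that were tested, 7 rose and 5 fell at a median of 0.13, where 33.1% of all tested genes rose and 33.4% fell. Mycn, a transcription factor of granule neuron progenitors, fell from 11.2 ± 0.999 CPM in control cells to 2.28 ± 0.629 for sgMiat-6 and 1.97 ± 0.48 for the other guide (log2 fold change for both guides -2.40 ± 0.20, adjusted p = 4.28e-07 by edgeR). Cdk6, a kinase that drives entry into the cell cycle, fell from 13.3 ± 1.24 CPM to 3.16 ± 0.931 and 1.28 ± 0.177 (-2.72 ± 0.20, adjusted p = 1.02e-07). Ccnd1, a D cyclin partner of such kinases, rose from 909 ± 22.3 CPM to 2186 ± 154 and 1842 ± 38.8 (1.14 ± 0.09, adjusted p = 2.72e-07), and Ccne1 rose from 23.8 to 46.9 and 54.8 CPM (1.09 ± 0.11, adjusted p = 1.84e-06). Sfrp1, a secreted Wnt antagonist, had 0 control counts and 50 in the Miat guide libraries, at least 8.74-fold higher, taking 3 counts over the control group as the floor.

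**Figure D5:**
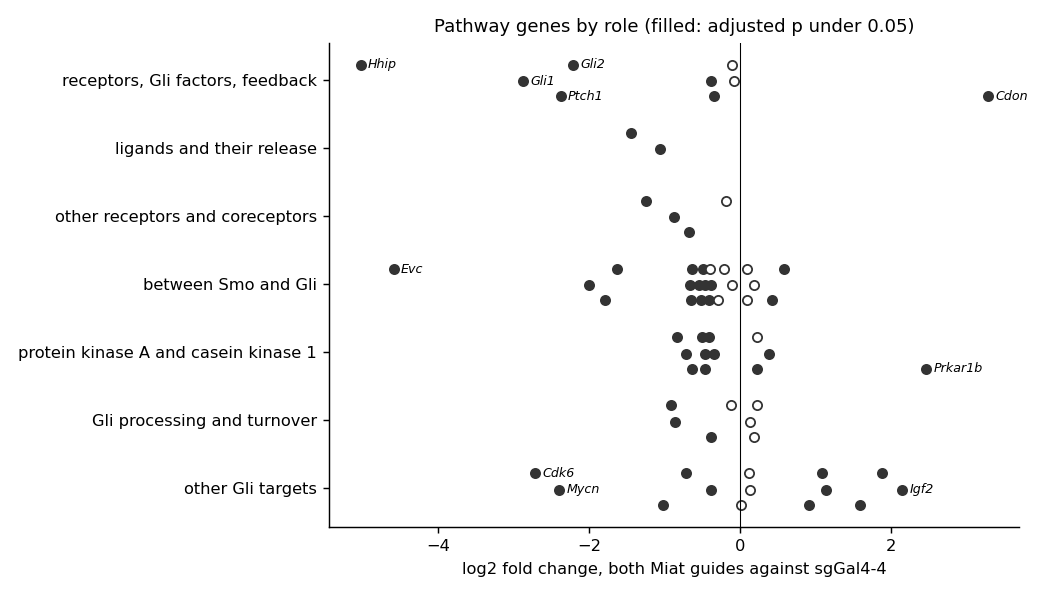
Log2 fold change for both Miat guides against sgGal4-4 (x axis, log2 units) of the 9 genes (top row) and other pathway genes by role; each point is 1 gene, filled where the adjusted p was under 0.05, and Sfrp1 with its 0 control counts is left out. Of the genes plotted outside the top row, Evc lies farthest left and Prkar1b, with 7 and 2 control counts, farthest right. The other Gli targets spread to both sides of 0.

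Among the 9 genes, profiles over the 6 libraries were compared by the root mean square difference of centred log2(CPM + 0.5). The closest pair was Smo and Sufu at 0.0971. Gli3 and Boc were at 0.253, and Gli1 and Gli2 at 0.393. Hhip and Cdon were farthest apart at 3.33. Over 10786 candidate genes, the 3 profiles nearest that of Gli1 were those of Ptpn3 at 0.102, Rnf182 at 0.127 and Cth at 0.154. Ptpn3, a protein tyrosine phosphatase, had 19.8 and 20.5 CPM in the control libraries and between 2.77 and 3.52 CPM in the Miat guide libraries. Nearest to Cdon were Mest at 0.102, Gprasp2 at 0.139 and Slitrk6 at 0.151. Mest, an imprinted gene, had 8.76 and 8.46 CPM in the control, 93.5 and 86.5 with sgMiat-6, and 64.0 and 73.0 with sgMiat-96. Gprasp2 had 0 control counts and Slitrk6 had 1, so the added 0.5 CPM limits their rise in this measure.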

How the data were processed

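Total RNA was made into mRNA-seq libraries, per the labels' protocols, and the submitters' processing notes name STAR and the mouse build GRCm38 (mm10). The read counter, the annotation and the handling of strand were named in none of the sources used here. Without strand, overlapping and antisense genes cannot be separated. Per the file headers, the authors deposited 3 values for each RefSeq transcript: its read count, FPKM and TPM. The deposited counts were analysed. The FPKM values deposited by the authors served only to recover transcript lengths, assuming a count divided by length and by the summed counts (the recovered length ratio was constant within 0.0411%), and to find zeros. The deposited TPM values were not used.

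The 33984 rows cover 24063 symbols, and 5261 symbols have several rows. The row with the highest total count was kept. In sgMiat-96 replicate 2, 11223 rows listed at 1 count with an FPKM of 0 were set to 0, so this test departs from the counts as deposited. Counts were tested with edgeR 4.0.16 (limma 3.58.1, R 4.3.3) after filterByExpr and TMM scaling, in 1 model of 3 groups over all 6 libraries with 3 residual degrees of freedom. The biological coefficient of variation was 0.0986. Standard errors were taken as the absolute log2 fold change over the square root of F. RPKM is TMM-scaled CPM per kilobase of transcript. The chi-square per gene between replicates was above the 1 of sampling noise: 4.12 (sgGal4-4), 19.1 (sgMiat-6) and 14.0 (sgMiat-96). Tested on simulated data for both guides against sgGal4-4 (12535 genes), edgeR found 74.2% of simulated 1.5-fold changes, 92.4% of 2-fold and 100% of 4-fold changes, with 6 false calls of 181. The simulation gave all genes a common dispersion and changed far fewer genes than were called here. It held no trend over transcript length, so its rates may not hold for these data.

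The members and lists were chosen with earlier results of these data known. Named were the 9 genes, up to 4 called genes with the smallest adjusted p of each pathway list, the ligands, the 3 profiles nearest Gli1 and Cdon, and Miat. For 1 further gene under this rule no values are printed or plotted; it remains in the counts of its list. Gas1 and Sfrp1 were named after their values were seen. Coordinates come from GENCODE M21 on GRCm38. Alternatives were RLE scaling, total count scaling, no filter, DESeq2 1.42.0, zeros as listed, a replicate block, removal of a loess trend over length, only the groups compared, the first listed row and each library left out. Python 3.11.15, pandas 2.3.3 and matplotlib 3.10.9 were used.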

Additional observations from a re-analysis of the deposited data

Results flagged for a closer look

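The effects of the 2 Miat guides against the same control differed for 3 of the 9 genes, by the test of sgMiat-96 against sgMiat-6 (edgeR's quasi-likelihood test, adjusted over all tested genes), in which 36.7% of all tested genes differed. Ptch1 fell further with sgMiat-96, at a log2 difference of -1.80 (adjusted p = 0.00089), and was called in all 16 settings, with values from -2.22 to -1.23. Gli3 fell with sgMiat-96 and was not called with sgMiat-6, at a difference of -0.52 (adjusted p = 0.0135). It was called in 13 of 16 settings, with values from -0.67 to -0.02. Cdon rose less with sgMiat-96, at a difference of -0.40 (adjusted p = 0.032), called in 12 of 16 settings, with values from -0.55 to 0.04. With the length trend removed neither Gli3 (-0.02, adjusted p = 0.911 by edgeR) nor Cdon (0.04, adjusted p = 0.777) was called. With 2 libraries per group, no single library was compared for standing apart from its group.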

How the results depend on the processing

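Gli1, Gli2, Ptch1, Hhip and Cdon kept their direction and call against the control for both guides and for each guide in every setting run. Of 531 recomputed values of the 9 genes, 484 kept direction and call, 18 lost the call, 8 gained it and 21 changed sign. The cause of a change was not tested. With the length trend removed, Gli3 was called higher, at 0.30 for both guides, 0.31 for sgMiat-6 and 0.29 for sgMiat-96. Smo was at 0.09 for both guides, and it was called at 0.23 for sgMiat-96 and at 0.27 between the guides. Values not called were Btrc at 0.07 for both guides and Sufu at 0.16, 0.06 and 0.25. Between the guides Sufu was at 0.19 and Cdon at 0.04, and neither was called. With a library left out, Sufu ranged from -0.20 to 0.01 for both guides and from -0.18 to 0.03 for sgMiat-6, and Gli3 from -0.25 to 0.11 for sgMiat-6, each positive without sgGal4-4 replicate 1. Smo ranged from -0.20 to 0.12 for sgMiat-96 and Sufu from -0.15 to 0.07 between the guides, each positive without sgMiat-96 replicate 1. Between the guides, Gli1 ranged from -0.46 to 0.14 (0.14 without sgMiat-6 replicate 2), Smo from -0.06 to 0.25 (-0.06 without sgMiat-96 replicate 2) and Boc from -0.14 to 0.16 (-0.12 without sgMiat-6 replicate 2 and -0.14 without sgMiat-96 replicate 2). Total count scaling put Smo at -0.04 and Boc at -0.13 between the guides.

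Counts moved in the comparison of the guides. Of the 9 genes 5 were called with total count scaling, and between 1 and 4 with a library left out, with 1 without sgMiat-6 replicate 1 and 1 without sgMiat-96 replicate 1. Over all genes 3222 were called with the length trend removed and between 1124 and 5739 with a library left out (1124 without sgMiat-96 replicate 1, 2251 without sgMiat-6 replicate 1). Of the other pathway genes between 8 and 30 were called with a library left out (8 without sgMiat-96 replicate 1, 14 without sgMiat-6 replicate 1).

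The replicate numbers were not treated as pairs, because deviations of same-numbered libraries had correlations of 0.0536, -0.223 and -0.366 between groups. With a replicate block, 17 other pathway genes were called between the guides in place of 27. The members called numbered 7 for both guides, 6 for sgMiat-6, 7 for sgMiat-96 and 3 between the guides. Hhip then passed between the guides (-1.70, adjusted p = 0.0416 by edgeR) and Cdon did not (-0.41, adjusted p = 0.0517). Depth limits Hhip, which had at most 14 counts in any Miat guide library.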
